A study of Mus musculus with 5 samples.

Results

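Spiny projection neurons are the output neurons of the striatum, and 7 genes that mark them were examined: Ppp1r1b, Strip2, Actn2, Arpp21, Foxp1, Foxp2 and Rarb. Each was read by 1 of the 53700 gene features in the count tables, so that 7 features carry all the values below. The feature of a gene was the one whose intervals overlap that gene's exons most, by position on the mouse genome build GRCm38 with the GENCODE M21 annotation. Feature labels in the deposited tables were set aside, because the counted reads appear to lie at GRCm38 positions while the features were drawn up for GRCm39. The genome build of the alignment is stated nowhere, and that reading rests on where the counts fall: the 33901 features with no GRCm38 exon at their positions held 1.057% of the counts. Each gene assignment below depends on it. For genes other than the 7, how much of the gene its feature covers is not given here. Their values are feature counts and need not stand for the whole gene. RNA was sequenced from homogenates of adult mouse striatum, in 2 libraries of mice with the R419W allele knocked into Adcy5 (KI replicates 1 and 3) and 3 libraries of their wild-type littermates (WT replicates 1, 2 and 3). The sources used here do not give the zygosity, sex or exact age of the animals. They also do not say which libraries come from different animals, so each p-value below reflects only library-to-library spread, some of which may be technical.

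Spiny projection neurons receive cortical, thalamic and dopamine input and send inhibitory axons out of the striatum through a direct and an indirect pathway. Dopamine and adenosine receptors act in them through cAMP, which Adcy5 makes, and through protein kinase A. Ppp1r1b encodes DARPP-32, which inhibits protein phosphatase 1 once protein kinase A has phosphorylated it. Arpp21 encodes another protein kinase A substrate and, in its long form, an RNA-binding protein. Strip2 belongs to the STRIPAK complexes, which join kinases to protein phosphatase 2A, and Actn2 encodes an alpha-actinin, which cross-links actin filaments and is found in dendritic spines. Foxp1 and Foxp2 are forkhead transcription factors and Rarb is a nuclear receptor for retinoic acid, and all 3 act in the development of striatal neurons.

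The features differ in how much of a gene they read. Positions in brackets here are those of the gene, not of its feature. Those of Strip2 (chromosome 6 from 29917012 to 29959681) and Foxp2 (chromosome 6 from 14901349 to 15441977) sit 1 base away from the gene and cover 99.75% and 99.83% of its exon bases. The feature of Foxp1 (chromosome 6 from 98925338 to 99522721) covers 1073 exon bases, or 7.8% of the gene's exons, all within the last of 18 exons of the principal transcript. A further 49.2% of its bases lie in introns of Foxp1, and 43.0% lie beyond the gene in no annotated exon. That of Ppp1r1b (chromosome 11 from 98348404 to 98357796) covers 908 exon bases of the gene, of which 887 lie in exons 6 and 7 of the 7 exons of the principal transcript, at its 3′ end. It also covers 354 exon bases of Stard3, 288 of Erbb2 and 47 of 1700003D09Rik, and 68.5% of its bases lie beyond Ppp1r1b in no annotated exon. Actn2 (chromosome 13 from 12269426 to 12340760) was read over 79 bases of exon 18 of 21, with the remaining 83.5% of its feature in introns of Actn2. Arpp21 (chromosome 9 from 112065091 to 112235938) was read over 771 exon bases, of which 280 lie in exons 6 to 8 of the 19 exons of the principal transcript, with 70.0% of the feature in its introns and 18.5% beyond the gene. For Rarb (chromosome 14 from 16430839 to 16819156) the feature covers 181 exon bases of 1 alternative transcript and 0 of the principal one, and 89.7% of it is intronic.

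The coding bases that stand for the 4 partly covered genes with a covered principal transcript are shown because they are the protein-coding part of what each value below reads. The rest of each feature is not shown. Sequences are from the GENCODE M21 transcripts (GRCm38), written 5′ to 3′, and capitals mark the coding bases that lie inside the counted feature.
Ppp1r1b exon 6, chr11:98356825-98356947, plus strand: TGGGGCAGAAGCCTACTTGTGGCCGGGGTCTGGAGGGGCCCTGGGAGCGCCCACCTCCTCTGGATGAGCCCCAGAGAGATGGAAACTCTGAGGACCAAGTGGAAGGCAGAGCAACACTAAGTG
Ppp1r1b exon 7, chr11:98357033-98357067, plus strand: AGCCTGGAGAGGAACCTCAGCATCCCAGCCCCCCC
Actn2 exon 18, chr13:12275078-12275224, minus strand: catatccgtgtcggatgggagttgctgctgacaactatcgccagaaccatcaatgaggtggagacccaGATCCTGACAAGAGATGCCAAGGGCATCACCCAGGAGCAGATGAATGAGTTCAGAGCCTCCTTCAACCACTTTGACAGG
Arpp21 exon 6, chr9:112177658-112177736, minus strand: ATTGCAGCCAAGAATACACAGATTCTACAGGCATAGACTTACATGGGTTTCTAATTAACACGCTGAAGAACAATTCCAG
Arpp21 exon 7, chr9:112176934-112176993, minus strand: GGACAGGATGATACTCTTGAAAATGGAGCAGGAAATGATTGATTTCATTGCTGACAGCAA
Arpp21 exon 8, chr9:112176095-112176235, minus strand: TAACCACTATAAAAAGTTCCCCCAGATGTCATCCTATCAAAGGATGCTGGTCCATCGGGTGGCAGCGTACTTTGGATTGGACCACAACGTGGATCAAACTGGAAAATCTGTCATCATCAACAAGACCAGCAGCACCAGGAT
Foxp1 exon 18, chr6:98930093-98930234, minus strand: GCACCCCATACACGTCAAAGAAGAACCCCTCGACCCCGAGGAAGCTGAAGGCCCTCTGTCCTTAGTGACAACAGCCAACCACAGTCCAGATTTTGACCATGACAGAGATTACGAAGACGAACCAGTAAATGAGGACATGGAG
The Ppp1r1b stretch encodes the C-terminal end of DARPP-32, away from the threonine that protein kinase A phosphorylates. Exon 18 of Actn2 encodes part of the EF-hand region, exon 8 of Arpp21 part of the RNA-binding R3H domain of the long form, and the Foxp1 stretch the tail that follows the forkhead domain.

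**Figure D1:**
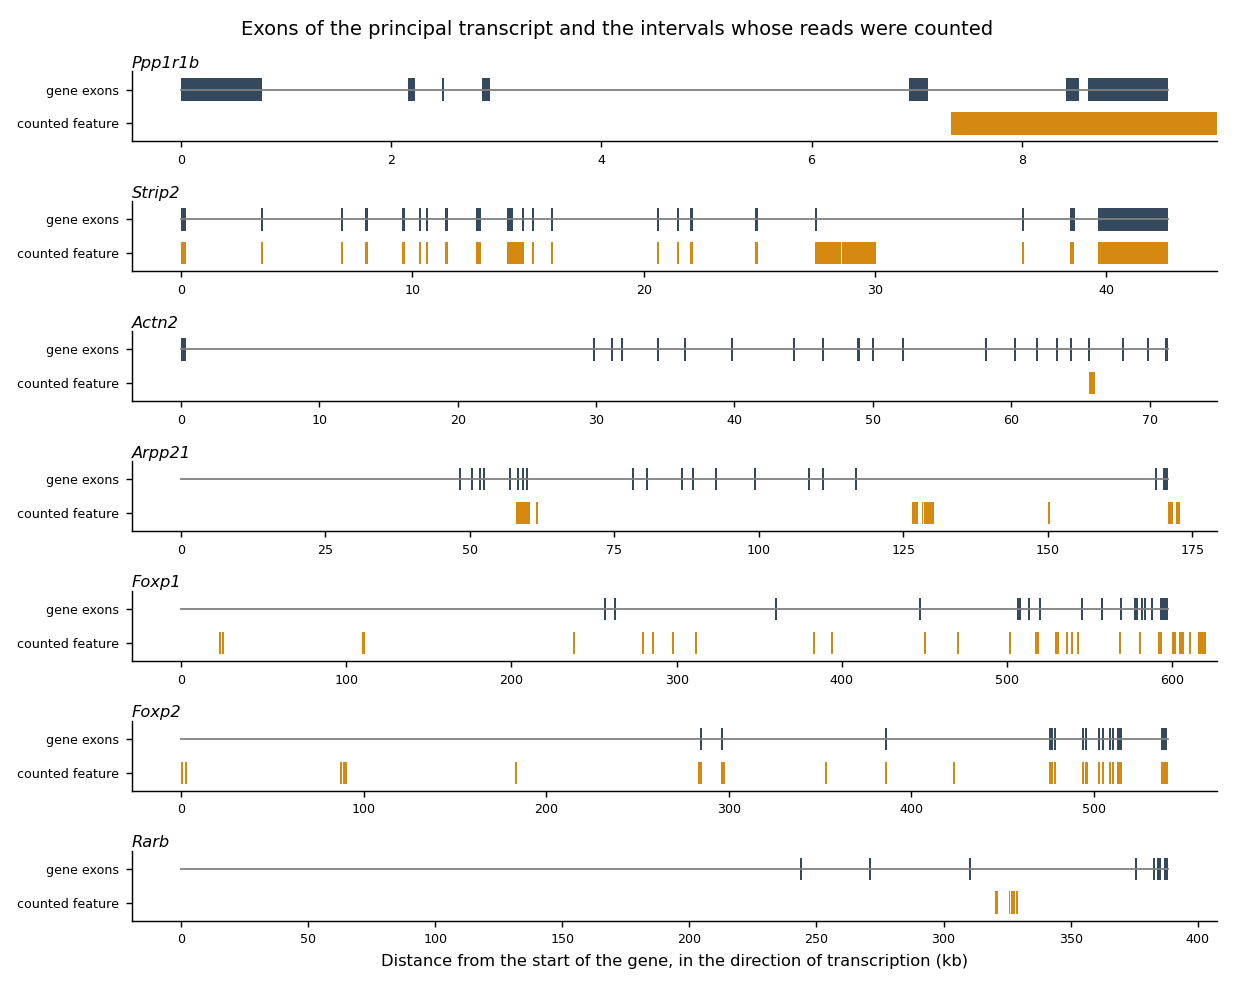
Exons of each gene's principal transcript (dark, upper track) and the intervals whose reads were counted (orange, lower track), against distance from the start of the gene in kb; very short blocks are drawn at a minimum width. For Strip2 and Foxp2 the counted intervals reach each exon of the principal transcript and also lie where it has none. The features of the other 5 genes touch from 0 to 3 exons of the principal transcript.

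Total counts lay between 6595105 and 7910584 per library. Over all features, 14 of 13665 passed the edgeR quasi-likelihood test of KI against WT at an adjusted p under 0.05 (0.102%); 8 of these were below WT in KI (0.0585%) and 6 above it (0.0439%). The libraries also differ in markers of neighbouring tissue, which are given further below. Their part in the results was not tested.

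None of the 7 genes passed that test, against 0.102% of all features, and 2 of 7 (Ppp1r1b and Strip2) had an unadjusted p under 0.05, against 6.4% of all features. The KI mean lay below the WT mean for 5 genes (Ppp1r1b, Strip2, Actn2, Foxp1 and Foxp2) and above it for Arpp21 and Rarb. The log2 fold changes of KI over WT had a median of -0.29 over the 7 genes, beside a median of -0.002 over all tested features, of which 50.3% were below 0. Both KI libraries lay below all 3 WT libraries for Ppp1r1b and Strip2, as they did for 11.1% of all features; separation in either direction was found for 22.4%. The count of 5 genes below WT was the same without any single library, with medians from -0.43 to -0.20. All 7 features passed the filter on low counts.

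**Figure D2:**
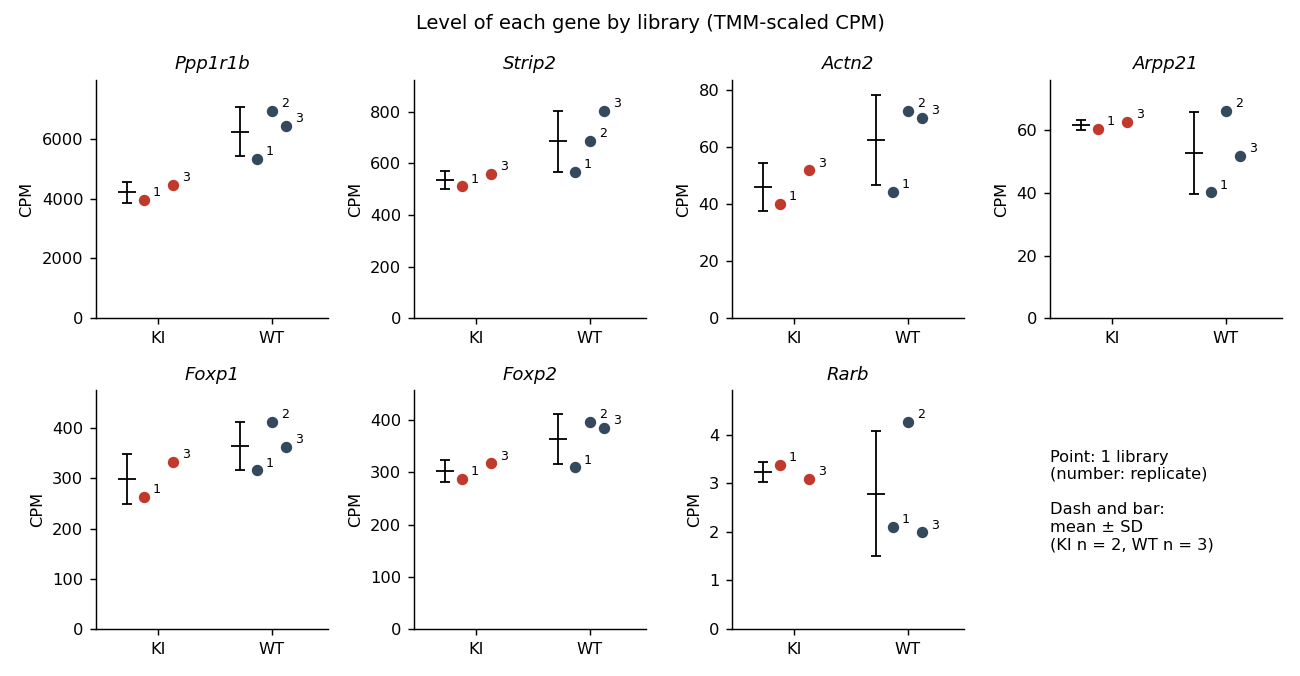
TMM-scaled CPM (y axes, starting at 0) of the 7 genes in each library, with KI left and WT right; points are libraries, numbers are replicates, and dashes with bars are the mean ± SD (KI n = 2, WT n = 3). The KI points lie below all WT points for Ppp1r1b and Strip2 and overlap the WT points for the other 5 genes.

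The feature over Ppp1r1b stood at 3973 and 4460 CPM in KI replicates 1 and 3, against 5345, 6944 and 6450 CPM in WT replicates 1, 2 and 3. The groups do not overlap, and the closest pair is KI replicate 3 and WT replicate 1. The level averaged 4216 ± 344 CPM in KI (SD, n = 2) and 6246 ± 819 CPM in WT (SD, n = 3), so the KI mean was 32.5% below the WT mean. The log2 fold change of KI over WT was -0.57 (SE 0.10, 95% interval -0.79 to -0.35), with an edgeR adjusted p = 0.06338, just outside the threshold. The DESeq2 Wald test placed the feature inside it (adjusted p = 0.0005234, where 1.27% of features were called), as did limma voom (adjusted p = 0.01416, where 0.381% were called). It was also called with no low-count filter (adjusted p = 2.321e-06, 0.744% of features called) and with the replicate number as a block (adjusted p = 1.313e-06, 1.13% called), although the labels do not say that the numbers pair libraries. Without WT replicate 1 the edgeR test gave an adjusted p = 3.494e-05 (1.22% of features called), and without any other single library the adjusted p lay between 0.1924 and 0.4819. In those fits the share of features called was 0.197% without KI replicate 1, 0.0401% without KI replicate 3, 0.0228% without WT replicate 2 and 0.0152% without WT replicate 3. How the counts divide among Ppp1r1b, Stard3 and Erbb2 was not tested, since no other feature lies over any of the 3 genes. In homogenate, fewer spiny projection neurons and less RNA per neuron cannot be told apart, here and for each gene below.

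Strip2, read over nearly its whole length, stood at 510.3 and 558.7 CPM in KI replicates 1 and 3, against 567.0, 687.1 and 803.4 CPM in WT replicates 1, 2 and 3. The groups do not overlap, but KI replicate 3 and WT replicate 1 are nearly level. The log2 fold change was -0.36 (SE 0.14, 95% interval -0.65 to -0.07) with an edgeR adjusted p = 0.6033. Without WT replicate 1 the edgeR adjusted p was 0.02539, and the log2 fold changes without 1 library ran from -0.47 to -0.23. Strip2 and Foxp2 are the only genes of the 7 covered almost whole, so only for them was a level per length computed. Per kilobase of counted exon Strip2 averaged 64.3 CPM in KI and 82.6 CPM in WT, and Foxp2 18.5 CPM in KI and 22.3 CPM in WT. That length takes in the exons of all annotated transcripts, 8308 bases for Strip2 and 16319 for Foxp2. Their principal transcripts account for 5351 and 5636 of these bases, so the scale does not rank Strip2 against Foxp2.

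Actn2 stood at 40.2 and 52.0 CPM in KI replicates 1 and 3, against 44.4, 72.8 and 70.4 CPM in WT replicates 1, 2 and 3. WT replicate 1 lies between the KI libraries, so the groups overlap. Its log2 fold change was -0.44 (SE 0.23, 95% interval -0.92 to 0.05; edgeR adjusted p = 0.8329). A second feature that touches 17 bases of Actn2 and also exons of its neighbour Mtr, a methionine synthase gene, gave -0.41 (SE 0.23).

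Arpp21 stood at 60.4 and 62.7 CPM in KI replicates 1 and 3, against 40.2, 66.2 and 51.7 CPM in WT replicates 1, 2 and 3. The KI libraries lie inside the WT range. Its log2 fold change was 0.22 (SE 0.20, 95% interval -0.22 to 0.67; edgeR adjusted p = 0.988), and the interval reaches to both sides of 0. Without 1 library it ran from 0.07 (without WT replicate 1) to 0.43 (without WT replicate 2).

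Foxp1 stood at 263.3 and 333.6 CPM in KI replicates 1 and 3, against 316.5, 413.5 and 363.5 CPM in WT replicates 1, 2 and 3. KI replicate 3 lies above WT replicate 1. Its log2 fold change was -0.29 (SE 0.14, 95% interval -0.59 to 0.02; edgeR adjusted p = 0.8097). It was -0.13 without KI replicate 1 and -0.47 without KI replicate 3.

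Foxp2 stood at 287.9 and 317.3 CPM in KI replicates 1 and 3, against 310.2, 397.7 and 385.6 CPM in WT replicates 1, 2 and 3. As for Foxp1, KI replicate 1 is the lowest library and KI replicate 3 lies just above WT replicate 1. The log2 fold change was -0.27 (SE 0.13, 95% interval -0.55 to 0.01; edgeR adjusted p = 0.8035), so the 2 forkhead genes had fold changes of similar size. The Foxp2 value covers nearly all exons of the gene, while the Foxp1 value comes from a feature with 7.8% of its bases in Foxp1 exons. Foxp4, another gene of the family, stood at 5.29 and 6.44 CPM in KI and 2.10, 2.67 and 2.14 CPM in WT, on a feature that also covers Mdfi (log2 fold change 1.34, SE 0.60, edgeR adjusted p = 0.754). It was named after its values were seen.

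The feature over Rarb held 25 and 25 counts in KI replicates 1 and 3, against 16, 32 and 13 counts in WT replicates 1, 2 and 3. That is 3.39 and 3.10 CPM in KI and 2.10, 4.28 and 1.99 CPM in WT, with WT replicate 2 above and the other WT libraries below both KI libraries. The log2 fold change was 0.21 (SE 0.73), and its 95% interval from -1.36 to 1.79 spans a halving and a doubling. A difference in this feature was thus not detectable at these counts (edgeR adjusted p = 0.9996). The feature also holds 0 exon bases of the principal Rarb transcript, so it cannot decide whether that transcript differs. Both features over exons of the principal Rarb transcript also lie over Top2b, a topoisomerase gene on the opposite strand that overlaps the end of Rarb. With the counts of the 3 features over Rarb summed, the log2 fold change was -0.22 (SE 0.16), the opposite sign.

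**Figure D3:**
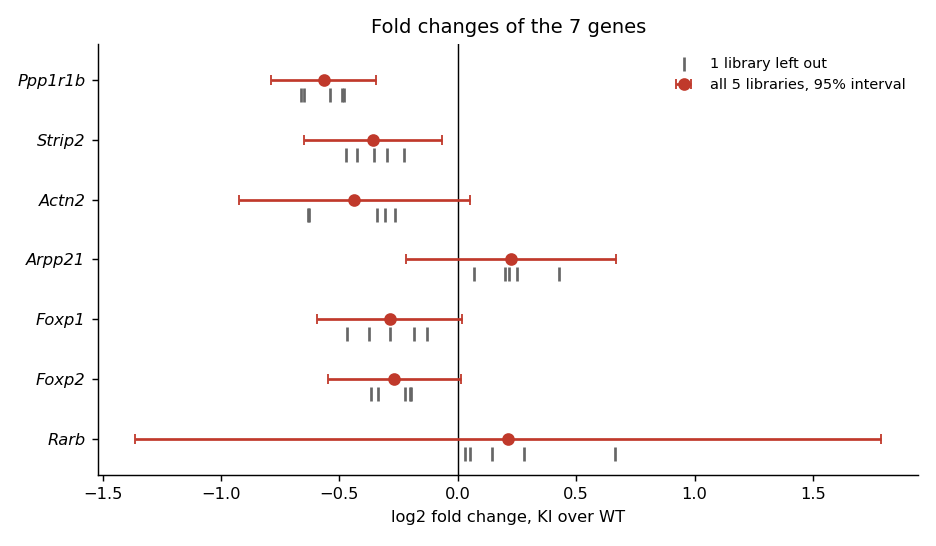
Log2 fold change of KI over WT for each gene (x axis) from the edgeR fit on 5 libraries, with its 95% interval (red), and the value with each library left out in turn (grey ticks). The intervals of Ppp1r1b and Strip2 lie below 0, and that of Rarb is the widest, from -1.36 to 1.79.

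The transcription factors were compared with the structural and signalling genes. The mean log2 fold change was -0.11 over Foxp1, Foxp2 and Rarb and -0.28 over Ppp1r1b, Strip2, Actn2 and Arpp21, a difference of 0.17. The same difference within a library, in log2 CPM centred on each gene's mean, was 0.14 and 0.08 in KI replicates 1 and 3 and 0.01, 0.07 and -0.30 in WT replicates 1, 2 and 3. The KI values lie above the WT values, but by less than the spread among the WT libraries, and WT replicate 3 stands apart. With all features over each gene summed, the difference between the classes was 0.02, and with the replicate number as a block it was 0.26. Without Rarb, which has few counts, it was 0.01, and without Rarb and Arpp21 it was 0.18, so that its size depended on which features and genes were included. No test was made of these averages, since the 7 genes were chosen with earlier results of these data known.

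Across the 5 libraries KI replicate 1 was the lowest for 5 genes (Ppp1r1b, Strip2, Actn2, Foxp1 and Foxp2), and WT replicate 1 was the lowest WT library for 6 genes (the exception is Rarb). Both KI libraries lay below WT replicates 2 and 3 for the same 5 genes. WT replicate 1 thus stood nearer to the KI libraries than the other WT libraries did for these genes, and its omission gave the lowest adjusted p of any single omission for each of the 5. Markers of cortical projection neurons, with 5 of 11 listed genes covered by a feature, summed to 136.2 and 54.5 CPM in KI replicates 1 and 3, against 117.8, 365.4 and 291.7 CPM in WT replicates 1, 2 and 3. Slc17a7, a glutamate transporter of cortical neurons, stood at 96.1 and 22.0 CPM in KI against 73.6, 286.7 and 210.3 CPM in WT, and Neurod2, a cortical transcription factor, at 6.64 and 1.73 CPM in KI against 1.58, 32.1 and 30.0 CPM in WT. Nptx1, on a feature shared with Rptor, had 15.3 and 16.8 CPM in KI against 13.4, 27.1 and 34.3 CPM in WT. These 3 markers were thus lower in KI replicates 1 and 3 and WT replicate 1, the libraries in which the 5 genes were lowest, than in WT replicates 2 and 3. The other 2 covered markers did not follow that order: Rorb had 12.9 and 10.8 CPM in KI against 22.6, 18.6 and 12.9 CPM in WT, and Cux2 had 5.29 and 3.10 CPM in KI against 6.70, 0.936 and 4.29 CPM in WT. Slc17a7 makes up most of the sum in each library except KI replicate 3.

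Thalamic and other subcortical glutamate neuron markers, with 6 of 7 genes covered, summed to 232.0 and 79.8 CPM in KI replicates 1 and 3, against 375.0, 126.0 and 92.0 CPM in WT replicates 1, 2 and 3. They were highest in the libraries numbered 1 of each genotype, with Tcf7l2, a thalamic transcription factor, at 15.4 and 2.23 CPM in KI against 30.9, 5.61 and 4.75 CPM in WT. Lef1, another transcription factor, had 7.05 and 0.743 CPM in KI against 16.7, 4.81 and 6.58 CPM in WT, on a feature shared with Gm42449. Choroid plexus and ependymal markers, with all 6 genes covered, summed to 815.2 and 2879 CPM in KI and 811.6 to 878.1 CPM in WT, and Foxj1, on a feature shared with Rnf157, made up most of that sum in each library except KI replicate 3. Ttr, the transthyretin gene, stood at 28.1 and 2093 CPM in KI against 41.8, 55.5 and 61.8 CPM in WT, on a feature shared with Gm16090. Prlr, the prolactin receptor gene, stood above all WT libraries in both KI libraries, at 26.4 and 51.4 CPM in KI against 14.8, 4.95 and 6.89 CPM in WT (log2 fold change 2.12, SE 0.41, edgeR adjusted p = 0.07139; DESeq2 adjusted p = 0.0004881), on a feature shared with Gm21973. Summed over the 5 libraries no covered marker of these 3 lists was at 0, but some were at 0 in single libraries, such as Folr1 in WT replicate 3. Without KI replicate 3 the log2 fold changes were -0.65 for Ppp1r1b and -0.43 for Strip2. That fit leaves only KI replicate 1, the lowest library for both genes, so it cannot show whether the choroid plexus markers bear on these values. The part of these markers in the results for the 7 genes was not tested.

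The other marker lists were nearer to level, though the oligodendrocyte sums did not overlap between the groups. Oligodendrocyte markers (6 of 8 genes covered) summed to 5424 and 5545 CPM in KI and 5861 to 7326 CPM in WT, with WT replicate 1 highest. Both KI libraries lay below all WT libraries for 3 of the 6, against 11.1% of all features. Interneuron markers (7 of 14 covered) summed to 722.8 and 604.9 CPM in KI and 591.9 to 721.7 CPM in WT. Astrocyte markers (4 of 7 covered) summed to 389.0 and 414.1 CPM in KI and 380.0 to 442.4 CPM in WT. Oligodendrocyte precursor, microglia and endothelial markers summed to at most 201.7 CPM in any library, and for each of the 3 lists the 2 groups overlapped.

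**Figure D4:**
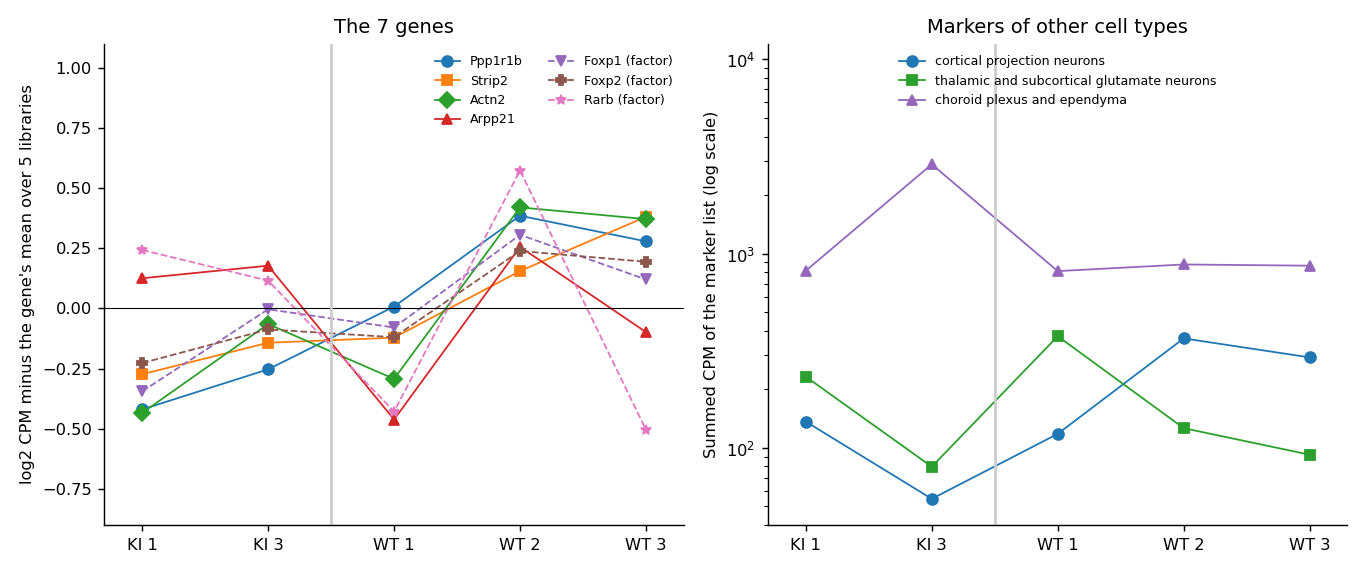
Left, log2 CPM of each gene minus its mean over the 5 libraries; right, summed CPM of 3 marker lists on a log scale; KI libraries stand left of WT libraries, and lines only join the points of 1 gene or list. In WT replicate 1 all genes but Ppp1r1b lie below their own mean, and cortical markers are at 117.8 CPM there against 365.4 and 291.7 CPM in WT replicates 2 and 3.

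Other genes of spiny projection neurons were taken from a list of 34 beside the 7, of which 14 could be tested. The KI mean lay below the WT mean for 12 of 14, with a median log2 fold change of -0.50, and 0 passed the edgeR test over all features (0.102% called). Both KI libraries lay below all WT libraries for 6 of 14 and above them for 1, where 11.1% and 11.3% of all features were so placed. The count was 10 or 11 of 14 without any single library, with medians from -0.62 to -0.37. Rgs9, a striatal regulator of G protein signalling, averaged 200.1 ± 32.4 CPM in KI and 408.9 ± 103 CPM in WT (SD, n = 2 and n = 3). Its log2 fold change was -1.03 (SE 0.19, edgeR adjusted p = 0.06338; DESeq2 adjusted p = 1.228e-05). Scn4b, a sodium channel beta subunit, averaged 278.7 ± 2.91 CPM in KI and 575.0 ± 179 CPM in WT on a feature that also covers Jaml and Gm10684 (-1.04, SE 0.20, edgeR adjusted p = 0.07139; DESeq2 adjusted p = 2.673e-05). Both had larger fold changes than any of the 7 genes, and the difference between them was not tested. The DESeq2 test called 1.27% of the features it tested. By DESeq2, Rasgrp2 (adjusted p = 0.01347), Penk (adjusted p = 0.01694) and Hpca (adjusted p = 0.018) were also past the threshold below WT. Rgs14 was past it above WT (adjusted p = 0.0239). Each of these lies on a feature shared with other genes.

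Genes of a single output pathway were few. For the indirect pathway all 4 tested genes had a KI mean below the WT mean (median -0.51). Among them Penk, the enkephalin gene, stood at 5599 ± 429 CPM in KI and 7449 ± 779 CPM in WT (edgeR adjusted p = 0.09917, DESeq2 adjusted p = 0.01694). Sp9, a transcription factor, stood at 51.5 ± 7.70 CPM in KI and 79.0 ± 6.53 CPM in WT (edgeR adjusted p = 0.2628, DESeq2 adjusted p = 0.1075). The feature over Penk also covers A830012C17Rik, and that over Sp9 also covers Cir1 and Scrn3. For the direct pathway Tac1, the tachykinin gene, stood at 1008 ± 31.3 CPM in KI and 915.3 ± 147 CPM in WT. Ebf1, a transcription factor, had 4.88 and 1.98 CPM in KI against 1.84, 6.15 and 1.53 CPM in WT. Its log2 fold change was 0.11 (SE 0.80). With all libraries 0 of 2 tested direct pathway genes lay below WT, and without KI replicate 1 the number was 2 of 3. For the indirect pathway it was 4 of 4 without any single library. Whether the pathways differ was not tested. Penk and Tac1 are also among the shared genes above, and Sp9 and Ebf1 among the striatal transcription factors below.

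Around the transcription factors, 14 further striatal transcription factor genes were tested. The KI mean lay below the WT mean for 7 and above it for 7, with a median log2 fold change of -0.03 and 0 past the edgeR threshold; without WT replicate 2 the number below was 4. The smallest p-values belonged to Sp9 and to Dlx6, a homeobox gene of the developing striatum whose feature is shared with Dlx6os2, at 175.9 ± 6.44 CPM in KI and 219.1 ± 25.7 CPM in WT (edgeR adjusted p = 0.6994). Of 8 retinoid signalling genes beside Rarb, 3 lay below and 5 above WT (median 0.07), and 0 passed; without WT replicate 3 the number below was 7. Rxrb, a receptor partner of Rarb, averaged 286.5 CPM in KI and 328.5 CPM in WT on a feature shared with Slc39a7 and Gm20427 (edgeR adjusted p = 0.8656).

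Around the signalling and structural genes, 11 partners of DARPP-32 and its phosphatases were tested, 9 with a KI mean below and 2 above WT (median -0.15). Of these 0 passed the edgeR test. DESeq2 values are given beside it, from a test that called 1.27% of features. Ppp3r1, the regulatory subunit of calcineurin, which dephosphorylates DARPP-32, stood at 111.1 and 116.3 CPM in KI against 147.9, 165.1 and 170.2 CPM in WT (-0.50, SE 0.13, edgeR adjusted p = 0.2061; DESeq2 adjusted p = 0.04761). Ppp1ca, a catalytic subunit of the phosphatase that DARPP-32 inhibits, averaged 1595 ± 199 CPM in KI and 2108 ± 245 CPM in WT on a feature shared with 4 other genes (edgeR adjusted p = 0.2784). Of 11 STRIPAK genes beside Strip2, 8 lay below and 3 above WT (median -0.09) and 0 passed the edgeR test. Strn, a scaffold of the complex, stood at 205.2 and 244.7 CPM in KI against 308.3, 447.7 and 401.5 CPM in WT, on a feature shared with Vit (-0.78, SE 0.16, edgeR adjusted p = 0.0717; DESeq2 adjusted p = 0.0003097). Cttnbp2, a neuronal member whose feature is shared with Gm15594, gave -0.33 (SE 0.11, edgeR adjusted p = 0.513).

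Of 14 alpha-actinin and spine genes beside Actn2, 8 lay below and 6 above WT (median -0.14), and 0 passed the edgeR test. DESeq2 called 1.27% of features. Actn1, a paralogue of Actn2, stood at 123.6 and 145.9 CPM in KI against 174.8, 215.6 and 205.9 CPM in WT (-0.56, SE 0.14, edgeR adjusted p = 0.181; DESeq2 adjusted p = 0.02237). Shank2, a postsynaptic scaffold, had 8.81 and 8.30 CPM in KI against 5.25, 2.94 and 4.29 CPM in WT (edgeR adjusted p = 0.77). The groups do not overlap for either gene, and they differ in opposite directions.

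**Figure D5:**
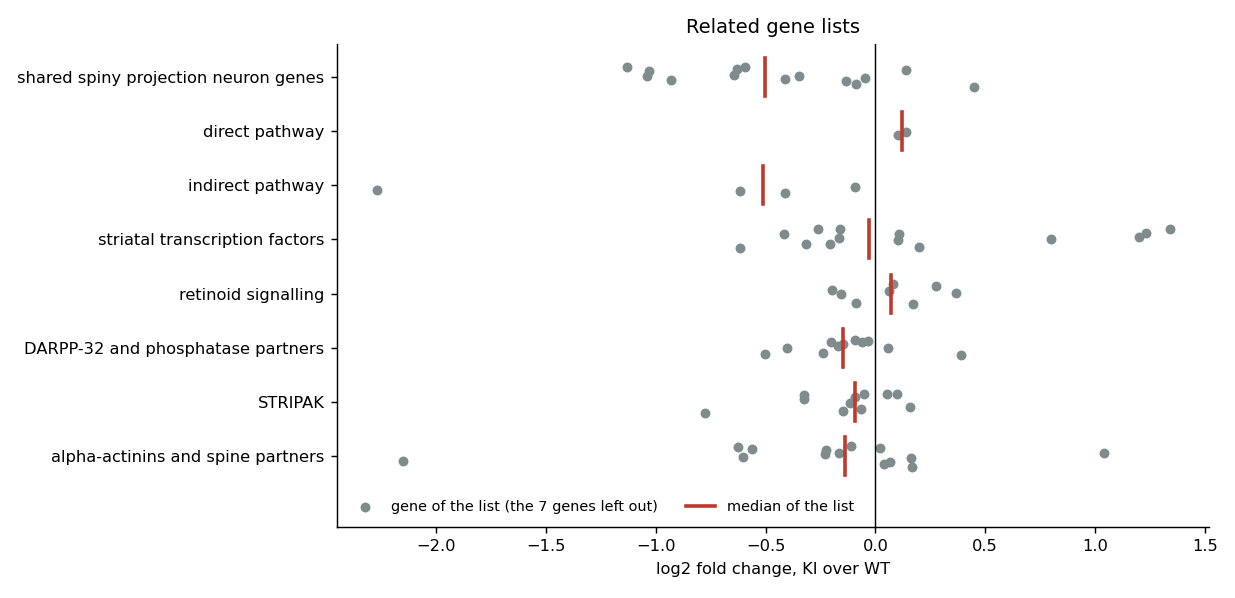
Log2 fold change of KI over WT (x axis) for the tested genes of 8 related lists, with the 7 genes left out; points are genes, red bars are list medians, and vertical scatter has no meaning. The medians of the shared spiny projection neuron list (-0.50) and of the 4 indirect pathway genes (-0.51) lie farthest below 0, and the other medians lie between -0.15 and 0.12. Some genes stand in more than 1 list, such as Penk in both lists with the lowest medians, so the medians are not independent.

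The genes with the most similar pattern were sought among 4478 or 4479 features (depending on the gene) over a single protein-coding gene with a mean of at least 10 CPM, by the root mean square difference of centred log2 CPM over the 5 libraries. Actn1 was the closest to Ppp1r1b (0.03), followed by Rragd and Ptprf (both 0.05), where the median over all candidates was 0.37. Closest to Strip2 were Mast3 (0.03), Rgs7bp and Arhgap32 (both 0.04), and to Actn2 they were Eml5 (0.03), Inf2 and Klf10 (both 0.06). Foxp1 lay nearest to Sec14l1 (0.04), Mbd2 and Stxbp2 (both 0.05), and Foxp2 to Neto2, Kdm4b and Myh10 (all 0.04). For Arpp21 they were Tln2, Mettl16 (both 0.05) and Pik3r4 (0.06), and for Rarb, whose pattern rests on few counts, Macrod1, Ncoa6 (both 0.05) and Grip1 (0.12). With 5 libraries such likeness is a description only.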

How the data were processed

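Library preparation used Illumina's ligation-based stranded mRNA protocol, per the labels' protocols, for all 5 samples. The deposited values are raw counts of fragments per gene feature from featureCounts 2.0.1, per the file headers, which name Ensembl release 103 (GRCm39). Strand was ignored, a fragment was assigned to every feature it overlapped and multi-mapped reads were left out, per the same headers. The aligner is not given in the sources used here. Features were laid over GENCODE M21 (GRCm38) exons by position (bedtools 2.31.1), with positions left as they were. No GRCm38 exon lay under 33901 of 53700 features, which held 1.057% of the counts. A listed gene was read by the feature with the largest exon overlap.

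After filterByExpr and TMM scaling, KI was compared with WT in edgeR 4.0.16 (R 4.3.3) by its quasi-likelihood test, with Benjamini-Hochberg adjustment over 13665 features and a threshold of 0.05. Alternatives used DESeq2 1.42.0, limma 3.58.1, other scalings, no filter, the replicate block, other features for a gene and each library left out. CPM uses TMM-scaled library sizes. A count of 0 allows 0.379 to 0.455 CPM (3 counts, counting error only).

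The 7 genes and all lists were chosen with earlier results of these data known. From each pathway list, and from the cortical, thalamic and choroid plexus markers, the text names genes past the threshold, up to 4, or else the 2 with the smallest p, and also Slc17a7, Neurod2 and the 3 nearest patterns per gene. The other marker lists are given as sums. For retinoid signalling 1 of these is not reported here. Nptx1, Rorb, Cux2, Foxj1, Folr1, Foxp4, Rasgrp2, Hpca and Rgs14 were named after their values were seen.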

Additional observations from a re-analysis of the deposited data

How the results depend on the processing

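Of the 7 genes, 0 passed the threshold in the edgeR test with TMM, with DESeq2 size factors and with unscaled library totals. The number was 1 (Ppp1r1b) with no low-count filter, with the DESeq2 Wald test, with limma voom and with the replicate block, and 0 to 2 without single libraries, the 2 being Ppp1r1b and Strip2 without WT replicate 1. Against 14 features called in all, no filter gave 183, the DESeq2 Wald test 130, limma voom 52, the replicate block 154 and an adjusted p under 0.10 gave 67. Without single libraries the number ran from 2 to 161: 30 and 6 without KI replicates 1 and 3, and 161, 3 and 2 without WT replicates 1, 2 and 3. The sign was opposite for Rarb (-0.22) with all features over the gene summed, which adds reads of Top2b, and for Arpp21 (-0.43) with the feature that carries its own label in the files, which lies over no GRCm38 exon. The difference between transcription factors and the other genes was 0.17, with 0.02 for summed features, 0.26 with the replicate block, and 0.0066 without Rarb, an alternative chosen after seeing the data. It ran from 0.06 to 0.27 without single libraries. Apart from these, the fold changes of the 7 genes kept their sign under each alternative that tested them. The cause was not tested. Nothing in the labels says that a replicate number pairs libraries. Deviations from the group mean correlated across features at r = 0.0947 for KI and WT replicates 1 and 0.0577 for KI and WT replicates 3. For KI replicate 3 and WT replicate 2 the value was 0.0477. With 2 KI libraries the KI deviations are exact opposites, so these correlations cannot decide whether the numbers pair libraries. In the block fit, where WT replicate 2 has no KI partner, Ppp1r1b had an edgeR adjusted p = 1.313e-06. With 1 KI library left, its spread is taken from WT. Low counts limit Rarb most, at 13 to 32 per library, on a feature with 0 exon bases of its principal transcript.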
